A study of Mus musculus with 26 samples.

Results

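The genes described here set or mark the identity of spinal motor neurons: Mnx1 (HB9), Isl1, Isl2, Lhx3, Lhx4, Foxp1, Onecut1 and Onecut2, which encode transcription factors, and Aldh1a2, which encodes an enzyme that makes retinoic acid. They were chosen by gene symbol from what is known of motor neuron development, and all 9 were found among the 56941 genes of the deposited expression tables. Of the 9, 8 had enough counts to be tested, and Isl2 did not.

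Newborn motor neurons switch on Mnx1, a homeobox gene that holds down interneuron programmes. A complex of Isl1 and Lhx3 drives the cholinergic genes that a motor neuron needs for its transmitter. Columns of motor neurons are then told apart by which factors stay on: Lhx3 and Lhx4 mark cells that innervate axial muscle, while Foxp1 and Aldh1a2 mark cells that innervate limbs, and Onecut genes are active in many young spinal neurons.

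The cells came from HBG3, mouse embryonic stem cells with the reporter HB9::GFP, which lights up cells that use the HB9 promoter, and a genotype given as heterozygous blastocysts. All groups were differentiated with retinoic acid and a hedgehog agonist (puromorphamine on the labels), then received ciliary and glial cell-derived neurotrophic factors, and were seeded as spheroids on fibrin at about day 8 of differentiation. Spheroids of the actuated group (n = 4) lay on a magnetic silicone array moved at 4 Hz for 30 min each day, and those of the static group (n = 4) lay on an array that was never moved. In the biochemical arm, 6 samples were labelled low intensity, 6 high intensity and 6 were its controls. Actuated arrays were compared with static ones for the effect of movement, each medium with the controls and with the other for the effect of the medium, and static arrays with controls as the unstimulated groups of both arms. The design text speaks of medium taken from muscle cells that were or were not stimulated with light, and does not say which of these is the high or the low group. All libraries come from 1 cell line, spheroids hold several cell types, and no label says that replicates were separate cultures, so p-values measure only the spread between these samples.

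Libraries held 1536 to 13162635 counts. In 5 of the 26 libraries (static 3, control 4, low 6, high 4 and high 5), protein-coding genes had under 1000000 counts, and in control 4 rRNA took 75.7% of the counts. Values below are from the other 21 libraries, called the deeper libraries (4 actuated, 3 static, 5 control, 5 low, 4 high), and tests over all 26, in which 7 members had enough counts (all but Isl2 and Lhx3), are given for Isl1 and Foxp1 and as counts of calls. The deeper array libraries held 7269276 to 13162635 counts and the deeper medium and control libraries 1551334 to 3971348, so array and depth cannot be told apart between the arms. Levels are in CPM, counts scaled to 1000000 per library with TMM scaling (which adjusts library sizes for composition). CPM fits comparisons of 1 gene between libraries. Genes are compared with each other in TPM, a unit of transcript share that is scaled for transcript length. Neuronal markers were high in every group, with summed levels of 3059 to 4748 CPM over 8 genes, and so were glial markers (2397 to 5134 CPM over 10 genes, Gfap alone 1895 CPM on average). Of 14 interneuron markers, the sum was 175.5 to 311.5 CPM, so motor neuron factors shared by interneurons cannot be assigned to motor neurons here.

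Promoter sequences are shown for Mnx1, the gene behind the GFP reporter of these cells, and for Isl1, the member with the largest fitted fold change. Each run is the 250 bases before the RefSeq start (GRCm38.p6), 5′ to 3′ on the gene's strand. Mnx1 lies at chr5:29478471-29478720 and Isl1 at chr13:116309689-116309938, both on the minus strand. Capitals mark matches on either strand to TAAT, the core that many homeodomain factors bind, and to CCAAT, the box bound by NF-Y.
Mnx1: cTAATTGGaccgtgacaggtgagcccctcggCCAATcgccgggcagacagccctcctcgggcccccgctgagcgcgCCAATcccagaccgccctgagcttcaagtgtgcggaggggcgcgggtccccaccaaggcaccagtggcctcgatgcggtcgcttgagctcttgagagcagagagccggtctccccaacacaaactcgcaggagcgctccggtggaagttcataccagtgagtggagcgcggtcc
Isl1: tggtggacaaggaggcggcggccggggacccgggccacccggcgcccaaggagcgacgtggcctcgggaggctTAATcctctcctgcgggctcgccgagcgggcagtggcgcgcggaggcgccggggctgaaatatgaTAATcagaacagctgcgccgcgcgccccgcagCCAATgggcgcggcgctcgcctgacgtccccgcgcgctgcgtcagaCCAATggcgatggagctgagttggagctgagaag
The Mnx1 window holds 1 TAAT, which overlaps the outermost of its 3 CCAAT matches, and the Isl1 window holds 2 of each. TAAT occurs in 54.9% and CCAAT in 33.8% of 32851 promoter windows of this length, so neither is rare. The E-box CATCTG (14.4% of windows) and the Onecut motif ATCAAT (6.72%) have no match in either window, which says only that these letters are not in them. Both windows are rich in G and C (66.4% for Mnx1 and 71.2% for Isl1). Of the 9 genes, 8 were matched in the promoter table.

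Per transcript length, Foxp1 stood far above the other members. Its median over the deeper libraries was 54.2 TPM (28.4 to 98.5), and it was the highest member in 21 of 21 libraries. A middle tier followed with medians of 4.94 TPM for Onecut1, 4.03 for Isl1, 3.92 for Mnx1 and 3.24 for Onecut2. Aldh1a2 (1.15 TPM), Lhx4 (0.851), Lhx3 (0.785) and Isl2 (0.246) were lower. The lowest Foxp1 library lay above the highest Isl1 library (11.04 TPM), the highest of any other member, while every other pair of neighbours in this order overlapped. Foxp1 exceeded Lhx3 in all 20 libraries in which Lhx3 was above 0, by 6.10 ± 1.12 on the log2 TPM scale (SD, n = 20). Foxp1 is not restricted to limb-innervating motor neurons, so this is a balance of transcripts in the spheroid and not of columns. Onecut2 was above its paralogue Onecut1 in 2 of 21 libraries, and the log2 TPM ratio averaged -0.73. In CPM, which is not scaled for length, Onecut2 was above Onecut1 in 21 of 21 (mean log2 ratio 1.48). Their order thus rests on the scaling for transcript length.

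**Figure D1:**
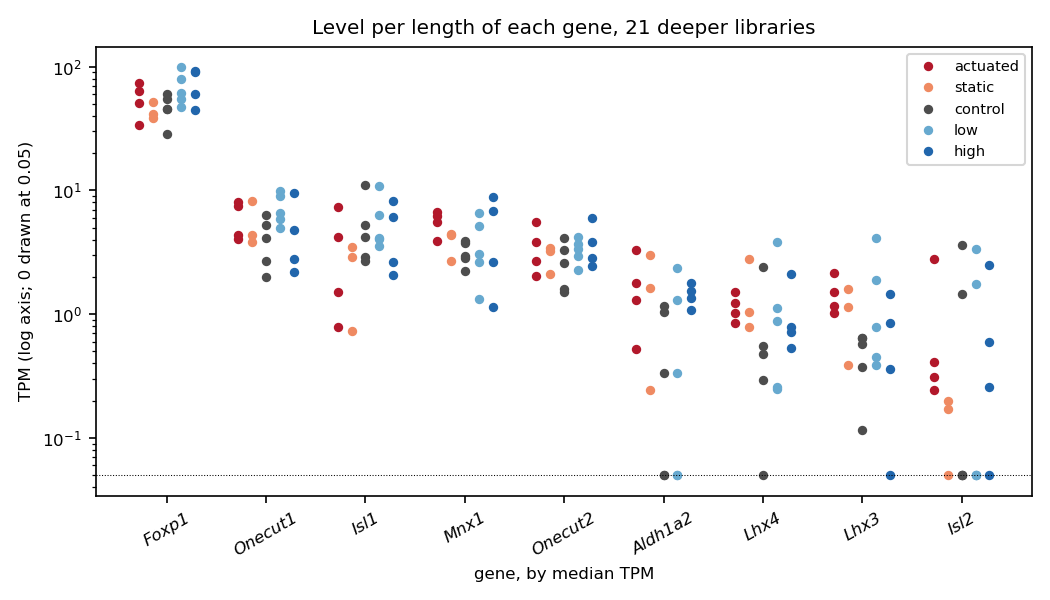
TPM of each gene (log axis, values of 0 drawn at 0.05) in the 21 deeper libraries, coloured by group and ordered by median. Foxp1 lies above every other gene, and the ranges of all other neighbours overlap.

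Mnx1, which the reporter line was built on, was detected in all 21 deeper libraries. Its CPM was 9.13, 9.67, 11.6 and 7.21 in the actuated and 6.78, 9.23 and 4.56 in the static libraries. Controls stood at 10.6, 10.9, 5.00, 6.55 and 8.69 CPM. Low-intensity libraries stood at 3.87, 7.87, 10.2, 5.06 and 2.38 CPM, and high-intensity libraries at 3.78, 17.8, 2.45 and 9.64 CPM. The 4 high-intensity libraries thus span both the highest Mnx1 level of all and nearly the lowest, and every pair of groups overlapped. Means were 9.40 ± 1.80 (SD, n = 4) in actuated, 6.86 ± 2.33 (n = 3) in static, 8.35 ± 2.56 (n = 5) in control, 5.88 ± 3.15 (n = 5) in low and 8.43 ± 7.01 CPM (n = 4) in high libraries. The fitted high to control fold was 0.995 with a 95% interval of 0.509 to 1.95.

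Isl1, the LIM homeobox gene needed for motor neuron generation, had the largest fitted fold change of any member, between static arrays and controls. Controls held 12.7, 14.7, 7.69, 28.1 and 8.69 CPM, and static libraries 6.33, 6.92 and 1.60 CPM, so the groups do not overlap. Of all 14730 fitted genes, 8.14% had separate groups in this comparison and 12.6% an unadjusted p under 0.05 (edgeR). The log2 fold change of Isl1 was -1.51 with a 95% interval of -2.70 to -0.32 (edgeR quasi-likelihood test, unadjusted p = 0.0151, adjusted p = 0.246), so it did not pass the threshold. Without static replicate 4 it was -1.09 (unadjusted p = 0.0884, adjusted p = 0.660, edgeR). Without control replicate 5 it was -1.13 (unadjusted p = 0.0599, adjusted p = 0.413, edgeR). Over all 26 libraries it was -1.20 (unadjusted p = 0.0865, adjusted p = 1.00, edgeR), where 5.27% of genes had an unadjusted p under 0.05. The shallow static replicate 3, left out of the main fit, held 19 counts of Isl1, or 31.0 CPM of its total (without TMM scaling), above the 26.4 of the highest deeper control on the same scale. Shallow control replicate 4 held 26 counts, or 17.8 CPM of its total, of which rRNA took 75.7%. Protein-coding genes had 272212 counts there and 457670 in static replicate 3, so control replicate 4 held more Isl1 counts on fewer protein-coding counts.

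Isl1 elsewhere covered much of the same range. Actuated libraries held 12.3, 7.23, 1.88 and 3.18 CPM, with a spread of 76.3% (CV) where counting alone gives 13.7%. Low-intensity libraries held 6.64, 7.12, 11.2, 7.59 and 11.9 CPM, and high-intensity libraries 3.78, 15.4, 6.54 and 9.64 CPM. Both medium groups overlapped the controls, with log2 fold changes of -0.67 (low, 95% interval -1.69 to 0.34) and -0.70 (high, -1.78 to 0.38). Over all 26 libraries these were -1.27 (unadjusted p = 0.0421, adjusted p = 0.924, edgeR) and -1.44 (unadjusted p = 0.0212, adjusted p = 0.550, edgeR). The shallow libraries added to these groups were low 6 and high 4 (0 Isl1 counts each), high 5 (3 counts) and control 4 (26 counts). The shares of all genes with an unadjusted p under 0.05 over all 26 libraries were 5.23% and 7.04% (edgeR). The 3 comparisons with controls share those control libraries, in which replicate 5 has the highest Isl1 level of all 21. Actuated against static gave a log2 fold change of 0.29 (-0.89 to 1.48), which was -0.57 over all 26 libraries.

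Isl2, a paralogue of Isl1 that acts with it in motor neurons, was close to the limit of detection. It had 61 counts in the 21 deeper libraries, 13 of which had any, and failed the low-count filter. In controls 3 of 5 libraries held 0 counts, which allows up to 0.893, 1.02 and 1.32 CPM of the total (3 counts) in replicates 2, 3 and 5. The highest levels were 3.41 CPM in low 3 and 3.24 CPM in high 2. All 4 actuated libraries were at 1.30, 0.376, 0.331 and 0.489 CPM, from 3 to 10 counts. They lay above the 3 deeper static ones (0.226, 0 and 0.247 CPM, from 0 to 2 counts). These groups thus do not overlap, as for 4.33% of the 14730 fitted genes. Without the low-count filter this difference had an unadjusted p of 0.243 (edgeR, adjusted p = 1.00), and shallow static replicate 3 held 3 counts, or 4.89 CPM of its total. The groups of the other 4 comparisons overlapped.

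Lhx3 and Lhx4, LIM homeobox genes of the medial column, were also sparse. Lhx3 had 1 to 5 counts in each deeper control, 2 to 10 in low-intensity and 0 to 7 in high-intensity libraries. It had 6 to 30 in the deeper static and 12 to 34 in the actuated ones, which were sequenced more deeply, so these counts do not compare levels. Lhx3 means were 2.33 ± 0.74 CPM (SD, n = 4) in actuated, 1.56 ± 0.76 (n = 3) in static, 1.24 ± 0.50 (n = 5) in control, 1.75 ± 1.24 (n = 5) in low and 1.11 ± 1.24 (n = 4) in high libraries. Lhx4 was at 2.253 to 4.89 CPM in actuated, 3.94 to 5.43 in static, 0 to 5.75 in control, 1.02 to 4.49 in low and 0.811 to 4.91 in high libraries. For both genes the groups overlapped in each of the 5 comparisons. Their 95% intervals reached 1.43 to 1.74 to either side of the log2 fold change, so these data bound neither gene closely.

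Foxp1, a forkhead factor that sets limb-level columns, was the most precisely measured member. Controls held 141, 128, 130.4, 175 and 141 CPM, and static libraries 111, 108 and 105 CPM, so static lay below every control. Separate groups were found for 8.14% of all genes in this comparison, and an unadjusted p under 0.05 for 12.6% (edgeR). The log2 fold change of Foxp1 was -0.40 with a 95% interval of -0.70 to -0.11 (edgeR, unadjusted p = 0.00875, adjusted p = 0.196). Its lowest adjusted p under any alternative was 0.0757 (DESeq2), so it too did not pass. Over all 26 libraries it was -0.30 (unadjusted p = 0.381, edgeR).

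Foxp1 groups overlapped in the other 4 comparisons. Actuated libraries held 145, 131, 99.99 and 124.9 CPM. Low-intensity libraries held 121, 140.5, 131, 162 and 109 CPM, and high-intensity libraries 123, 162, 135 and 152 CPM. High to control was a fold of 0.999 with an interval of 0.829 to 1.20, and low to control 0.925 (0.775 to 1.10). Both intervals are narrower than those of any other member in the same comparison. Actuated to static was 1.16 (0.942 to 1.43).

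Aldh1a2, which makes retinoic acid in limb-level motor neurons and in meninges, was erratic within groups. It was at 0 in 2 of 5 controls and 2 of 5 low-intensity libraries and reached 5.79 CPM in static 4. High-intensity libraries held 1.77, 3.65, 3.27 and 2.20 CPM. The interval of its high to control fold ran from 0.391 to 7.31, and the dispersion of this gene (biological coefficient of variation 90.7%) was the highest among the members. Summed fibroblast and meningeal markers were 909 to 2418 CPM in high-intensity, 240 to 2578 in low-intensity and 355 to 907 in control libraries. In actuated and static libraries they were 51.4 to 594 and 160 to 775 CPM. Of these 9 markers, 0 passed the threshold in high or low against control, where 0.462% and 0.597% of all genes did. A count of 0 among 9 is near these shares. Log2 fold changes were above 0 for 9 of 9 in high and 8 of 9 in low against control. Of the 9, 4 and 1 had an unadjusted p under 0.05 (edgeR), where 15.9% and 15.2% of all genes had. The part of these markers in the Aldh1a2 level was not tested.

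The Onecut genes, cut-homeobox factors of early spinal neurons, overlapped between the groups of each comparison. Onecut1 averaged 17.7 ± 4.41 CPM (SD, n = 4) in actuated, 17.2 ± 5.07 (n = 3) in static, 20.4 ± 6.73 (n = 5) in control, 17.4 ± 4.77 (n = 5) in low and 14.8 ± 6.91 (n = 4) in high libraries. Onecut2 controls held 50.0, 36.4, 65.0, 73.9 and 52.2 CPM, and low-intensity libraries 38.2, 40.5, 45.3, 55.0 and 36.1 CPM. The low to control log2 fold change of Onecut2 was -0.37 (95% interval -0.81 to 0.07), with the groups overlapping. High-intensity libraries held 48.9, 44.995, 46.2 and 65.6 CPM, within the range of the controls.

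**Figure D2:**
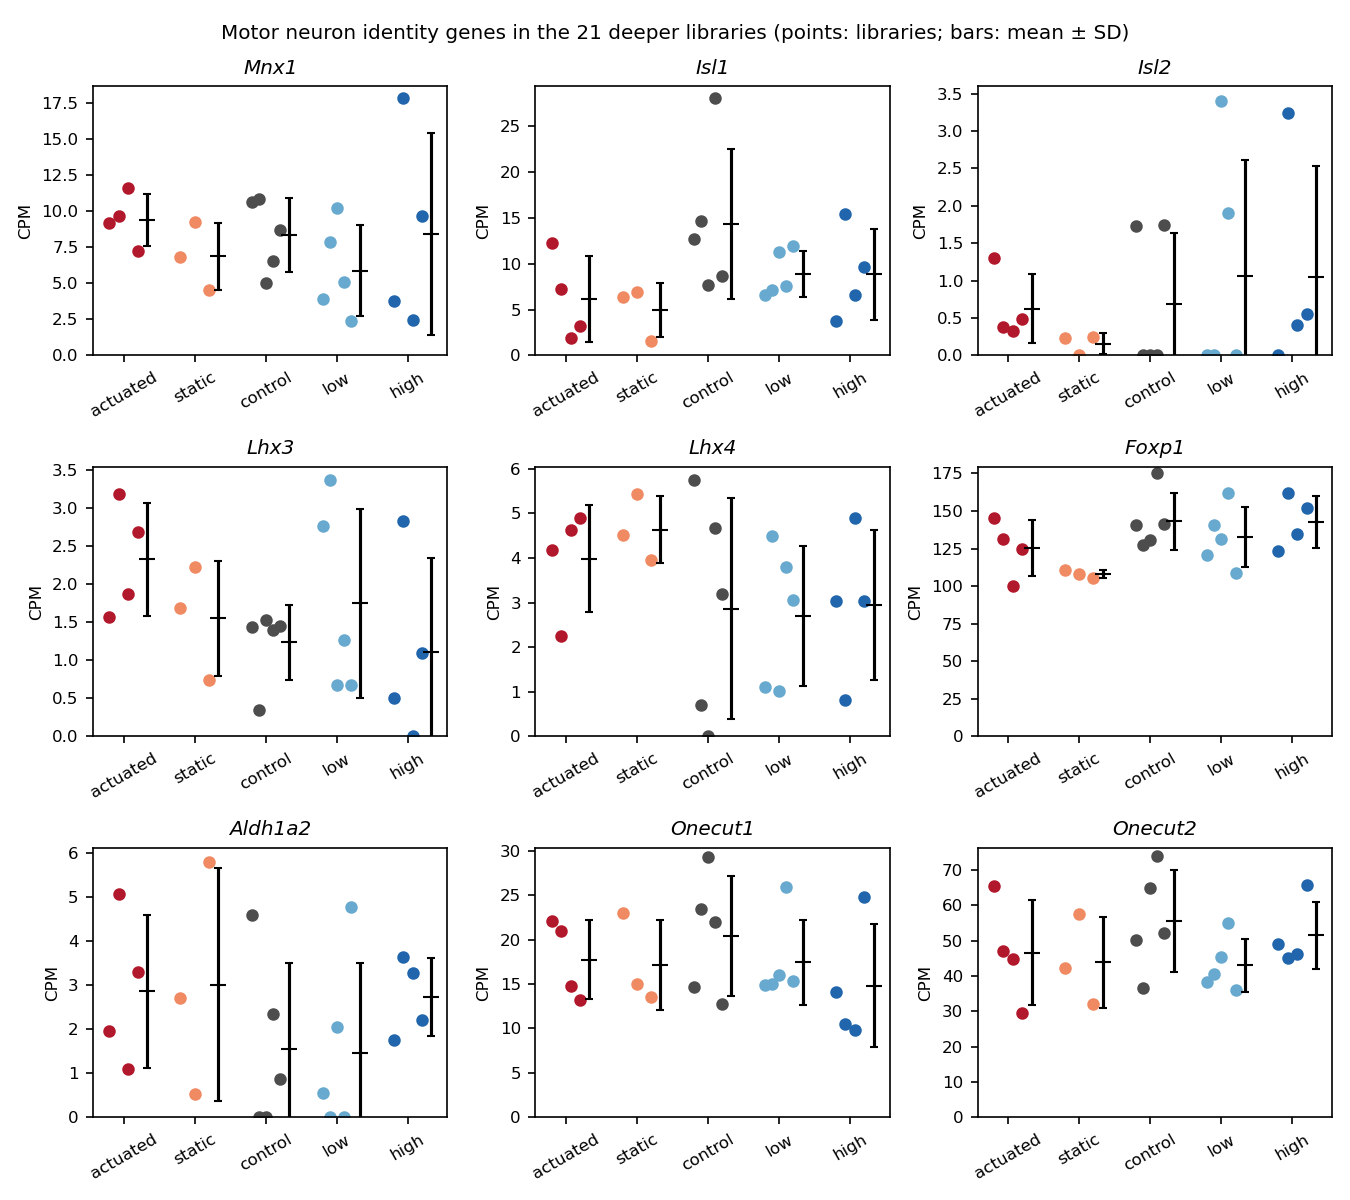
CPM of the 9 genes in each deeper library (points) with the group mean and SD (bars, not drawn below 0), by group. Static Isl1 and Foxp1 lie below every control, and actuated Isl2 lies above every static library on 3 to 10 counts a library. In the 4 comparisons other than static against control, the groups overlap for the 8 other genes. Of all fitted genes, 8.14% had separate groups in static against control and 4.33% in actuated against static.

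No member passed the threshold of an adjusted p under 0.05 in any of the 5 comparisons (0 of 8 fitted members in each, edgeR). Among all 14730 genes fitted, 0% were called between actuated and static arrays, where 56 genes (0.38%) had an unadjusted p under 0.05. The shares called were 0.462% for high against control, 0.597% for low against control, 0% for high against low (1131 genes, or 7.68%, with an unadjusted p under 0.05) and 0.713% for static against control. A count of 0 among 8 is near these shares and is no result about the members. Over all 26 libraries 0 of 7 fitted members were called as well, against 0% (actuated and static), 0.0402% (high and control), 0.0268% (low and control), 0% (high and low) and 0.0134% (static and control) of 14907 genes. Unadjusted p-values under 0.05 were found for 2 of 8 members in static against control (Isl1 and Foxp1), where 12.6% of all genes had them, and for 0 of 8 in each other comparison, where the share was 15.9% for high against control and 15.2% for low against control. Groups did not overlap for the same 2 members in static against control, where 8.14% of all genes had separate groups. In the other comparisons, 0 of 8 fitted members had separate groups. The shares of all genes were 4.33% for actuated against static, 3.56% for high and 2.25% for low against control, and 2.63% for high against low. Isl2, which was not fitted and is outside this count, had separate groups in actuated against static. Members' median log2 fold changes were 0.15 for actuated against static, -0.05 for high against control, -0.18 for low against control, 0.14 for high against low and -0.26 for static against control. The medians over all genes were between -0.01 and 0.01.

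**Figure D3:**
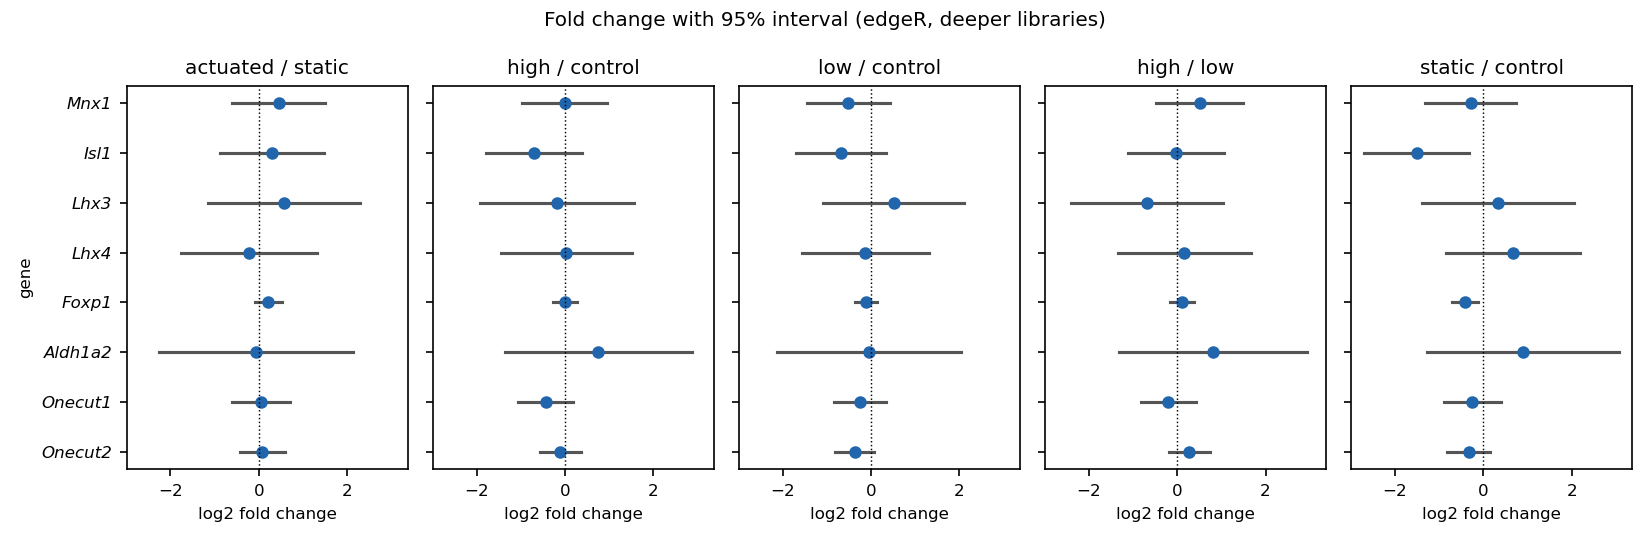
Log2 fold change (point) and 95% interval (line) of the 8 fitted genes in 5 comparisons, from edgeR on the deeper libraries. The intervals of Isl1 and Foxp1 in static against control leave out 0 before adjustment, and the interval of Foxp1 is the narrowest throughout.

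Members differed in how much they varied between libraries. The biological coefficient of variation between libraries was 13.9% for Foxp1, 22.8% for Onecut2 and 29.1% for Onecut1, at or below the 30.4% common to all genes. It was 44.5% for Mnx1, 51.2% for Isl1, 57.5% for Lhx3 and 58.7% for Lhx4. Mnx1 at high intensity spread by 83.1% where counting alone gives 20%. Static Foxp1 spread by 2.47%, below the 3.02% that counting gives.

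**Figure D4:**
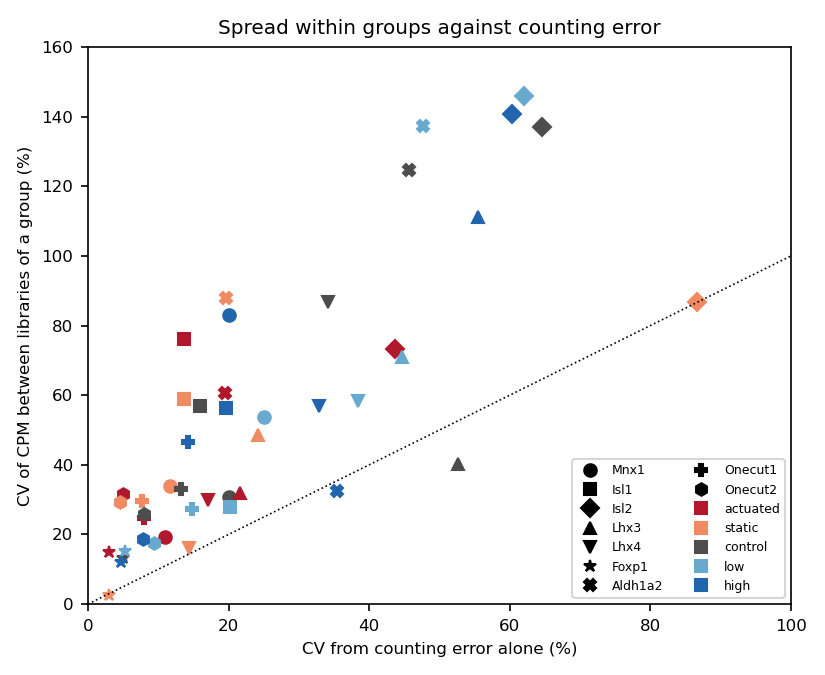
Coefficient of variation of CPM between the libraries of a group (y axis, percent) against the value that counting error alone gives (x axis, percent), for each gene (shape) and group (colour), with a dotted line where both are equal. Isl1 lies far above the line in the actuated group (76.3% against 13.7%) and Foxp1 close to it in the static group.

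TPM shifted the median of all genes and is not used for group differences. On log2(TPM + 1), the median of all genes was 0.53 higher in high-intensity, 0.64 higher in low-intensity and 0.52 higher in static libraries than in controls. Foxp1 was 0.59 higher in high-intensity libraries on that scale, close to the shift of all genes, and static Foxp1 was at -0.05, below it. Ratios of 2 members within a library are free of a shift common to all genes, but not of scaling that differs by gene. Across libraries, TPM per CPM ranged 2.67-fold for Mnx1, 4.00-fold for Isl1 and 13.1-fold for Lhx4. The log2 TPM ratio of Mnx1 to Isl1 was above 0 in 3 of 3 deeper static libraries (0.94 ± 0.81, SD, n = 3) and in 0 of 5 deeper controls (-0.56 ± 0.78, n = 5). It was above 0 in 3 of 4 actuated, 2 of 5 low-intensity and 3 of 4 high-intensity libraries. In CPM the static, control and actuated counts were the same, but the ratio was above 0 in 1 of 5 low-intensity and 1 of 4 high-intensity libraries. Shallow static replicate 3 breaks this split, with 2 counts of Mnx1 and 19 of Isl1, a ratio below 0 in both units. Shallow control replicate 4, with 1 and 26 counts, was below 0 like the deeper controls. The ratio contains the Isl1 difference between static and control libraries given above, and the share of gene pairs that separate these groups was not computed. The ratio of Lhx3 to Isl1 averaged -1.12 in static and -3.49 in control libraries, but control Lhx3 rests on 18 counts in all.

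Genes around the members in the motor neuron programme were examined from lists. Of 11 effector genes of motor neurons, 2 fell in static against control and 0 rose, where 0.713% of all genes were called: Slc5a7, the choline transporter, and Slit2, a secreted guidance cue. Slc5a7 was at 8.77 ± 3.76 CPM (SD, n = 3) in static and 32.5 ± 8.86 (n = 5) in control libraries, without overlap as for 8.14% of all genes (log2 fold change -1.88, SE 0.31, edgeR adjusted p = 0.00392). Slit2 was at 57.2 ± 7.02 against 105.4 ± 20.2 CPM (-0.88, SE 0.19, edgeR adjusted p = 0.0333). Slc5a7 passed without each other library but not without static replicate 4 (edgeR adjusted p = 0.0562), Slit2 was lost in 5 of 21 such fits and in a fit of only the 2 groups compared (edgeR adjusted p = 0.0589), and over all 26 libraries the adjusted p was 0.590 for Slc5a7 and 0.535 for Slit2 (edgeR). On log2(TPM + 1) neither passed (limma adjusted p = 0.214 and 0.190). Chat, which makes acetylcholine, was at 6.09 ± 1.40 against 11.3 ± 4.41 CPM with an edgeR adjusted p of 0.284. Prph, the effector of highest level, had a log2 fold change of 0.03 (SE 0.17). The median over the 11 effectors was -0.38, against -0.00 over all genes, and bulk RNA cannot tell fewer motor neurons from less RNA per motor neuron. Against the same controls, Slc5a7 had log2 fold changes of -1.08 in low-intensity (edgeR adjusted p = 0.0580) and -0.43 in high-intensity libraries (edgeR adjusted p = 0.473). Slit2 had -0.45 (edgeR adjusted p = 0.183) and -0.12 (edgeR adjusted p = 0.793). In each of these comparisons, 1 of 11 effectors had a log2 fold change above 0.

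Glial markers stood higher in static than in control libraries without passing the test. Their summed level was 3928 to 4821 CPM in static and 2479 to 3301 in control libraries, all 10 had a log2 fold change above 0, and 8 had an unadjusted p under 0.05 (12.6% of all genes had) while 0 passed adjustment (Sox10 log2 fold change 1.86, edgeR adjusted p = 0.0579). Summed neuronal markers were 4021 to 4722 CPM in static and 4349 to 4709 in control libraries. Summed markers of cycling cells were 266 to 408 CPM in static and 164 to 227 in control libraries, without overlap. All 4 had a log2 fold change above 0, 2 had an unadjusted p under 0.05 and 0 passed adjustment (Top2a log2 fold change 1.07, edgeR adjusted p = 0.109). The part of cell composition in the Isl1, Foxp1, Slc5a7 and Slit2 values was not tested.

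Other lists held no call in any comparison. They covered progenitor factors (8 genes, 7 tested; Pax6 and Olig1 highest), other postmitotic factors (7, 5 tested; Ebf3 and Ebf1), cofactors of LIM proteins (9, 9 tested; Rlim and Ldb1), column and pool factors (13, 10 tested; Nr2f2 and Nr2f1), Hox genes (14, 11 tested; Hoxb8 and Hoxa5) and retinoid genes (11, 9 tested; Cyp26a1 and Cyp26b1). Hoxb8 averaged 163 CPM over the deeper libraries, and Hoxc10 and Hoxd10 were at 0 in all actuated ones. Cyp26a1, which degrades retinoic acid, averaged 203 TPM, against 1.15 TPM for Aldh1a2, which makes it. Among markers of cell type, the cycling genes Mki67 and Top2a rose in high-intensity against control libraries (edgeR adjusted p = 0.0364 and 0.0448), Top2a rose in low-intensity libraries (0.0372) and the neuronal RNA-binding gene Elavl4 fell in them (log2 fold change -0.59, edgeR adjusted p = 0.0370). These 4 calls were lost in 9, 13, 9 and 10 of 21 fits that left out a library, and none held over all 26 libraries (adjusted p from 0.169 to 0.930, edgeR). Of 8 neuronal markers, 0 had a log2 fold change above 0 in high against control and 1 in low against control. Unadjusted p-values under 0.05 were found for 5 and 2 of the 8 (edgeR), where 15.9% and 15.2% of all genes had them. Of 7 muscle markers, Myog, Myod1, Actc1 and Tnnt3 were at 0 in all deeper controls. Counting all groups, they were at 0 in 18, 12, 17 and 13 of the 21 deeper libraries. Des, another of the 7, was detected in all 21 (51.2 CPM on average).

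Across the 21 deeper libraries the members varied together weakly. Pearson's r of deviations from group means in log2 CPM ran from -0.35 to 0.59 over 28 pairs with a median of 0.19, and 21 pairs were above 0. The highest were Isl1 with Foxp1 (0.59), Onecut1 with Onecut2 (0.54) and Mnx1 with Lhx3 (0.51), as a description, since all points share library and depth. Genes most like each member were ranked by another measure, Pearson's r of log2 CPM itself, which also holds differences between groups. Among 11760 genes of at least 5 CPM, the one most like Isl1 was Sox11, a SoxC factor of young neurons (r = 0.90), followed by Dync1li2 (0.84) and N4bp1 (0.84). For Isl1 and Sox11, r was 0.85 without control replicate 5 and static replicate 4, 0.91 in the 7 array libraries and 0.83 in the 14 medium and control libraries. The nearest to Mnx1 were Ctnnd2 (0.84), Mgat4c (0.82) and Igsf3 (0.81), and to Foxp1 Lrrc58 (0.83), Smad4 (0.83) and Sema3c (0.82). Onecut1 was most like Auts2 (0.78), Vgf (0.77) and Otud7a (0.76), and Onecut2 most like Hspa12a (0.79), Plcxd2 (0.78) and Cpeb4 (0.77). By deviations from group means, 0 of the 3 named for Foxp1 (0.79, 0.77 and 0.79) and 2 of the 3 named for each other member remained among its nearest 3. Each was picked as the highest of many, so these values are biased upward.

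**Figure D5:**
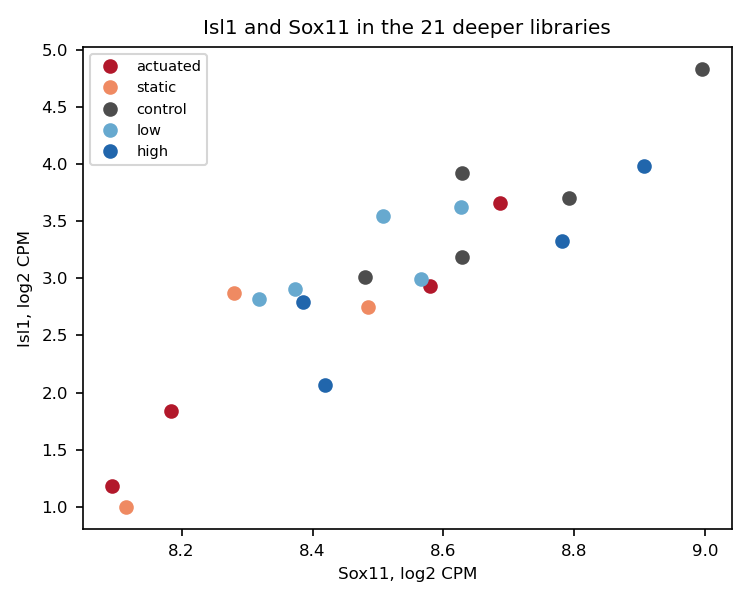
Log2 CPM of Isl1 against Sox11 in the 21 deeper libraries, coloured by group. Libraries with low Sox11 had low Isl1, static replicate 4 and control replicate 5 lie at the ends, and r is 0.85 without them.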

How the data were processed

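RNA-seq libraries from 4 ng total RNA (full volume for the 8 samples of lowest concentration) were sequenced in 50-base pairs, per the labels' protocols. The authors deposited estimated counts, unscaled for depth, and TPM values, which the authors scaled for length. BWA 0.7.12-r1039, bedtools 2.25.0, STAR and Salmon and the builds mm10, hg19 and GRCm39 are named in the submitters' processing notes without roles. The labels mention no molecular identifiers, so detection limits cover counting error only.

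Counts were rounded and fitted with edgeR 4.0.16 (R 4.3.3): filterByExpr, TMM, 1 model for all 5 groups, quasi-likelihood test, Benjamini-Hochberg adjustment over all genes, threshold 0.05. The fit used the 21 libraries with at least 1000000 protein-coding counts (14730 genes), and all 26 (14907 genes) as an alternative. DESeq2 1.42.0, limma 3.58.1 and other alternatives are in the closing section. The pipeline was tested on simulated data. Correlations used log2 CPM with a prior count of 2. The genes and lists were chosen with earlier results of these data known. Named genes are all 9 members and the 3 genes most like each member of at least 5 CPM. From each list they are those called, up to 3 of smallest p per comparison, or the 2 of highest level. Hoxd10, Myog, Actc1 and Tnnt3 are named outside this rule, for being at 0 in a whole group. Replicate numbers were not used to pair the samples, except as a block in an alternative fit.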

Additional observations from a re-analysis of the deposited data

Results flagged for a closer look

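Within groups of 4 or 5 deeper libraries, 5 of 36 gene and group combinations held a library far from the others. For independent, normally distributed values the rule used would flag about 1 in 20. That rate need not hold here, since some genes rest on few counts and all genes share libraries. Isl2 was at 1.30 CPM in actuated replicate 1 (next 0.489) and at 3.24 CPM in high replicate 2 (next 0.551). Lhx3 was at 0.350 CPM in control replicate 2, from 1 count. Foxp1 was at 175 CPM in control replicate 5 (next 141), and Onecut1 at 25.9 CPM in low replicate 4 (next 16.0).

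Libraries left out for depth also held signal above the highest deeper control, as CPM of the total, without TMM scaling, on more than 3 counts. In static replicate 3 these were Isl1 at 31.0 (19 counts; highest control 26.4), Lhx3 at 6.52 (4 counts; 1.40), Lhx4 at 11.4 (7 counts; 5.30) and Onecut1 at 26.1 (16 counts; 25.9). Isl2 there, at 4.89 (highest control 1.68), rests on 3 counts, the limit that a count of 0 allows. In high replicate 5, Onecut1 was at 28.3 (14 counts, highest control 25.9). Control replicate 4, where rRNA took 75.7% of the counts, held 26 counts of Isl1, or 17.8.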

How the results depend on the processing

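The count of called members was 0 in each of the 5 comparisons under every alternative run and every left-out library. Counts over all genes depended strongly on the settings. For high against control (68), low against control (88) and static against control (105), in that order, they were 6, 4 and 2 with all 26 libraries, 700, 660 and 459 with no low-count filter, 466, 470 and 380 with DESeq2, and 17, 21 and 42 with only the groups compared. With limma voom, high against control had 0 and low against control 1. On log2(TPM + 1) they were 2075, 5261 and 1061, on log2(TPM + 0.1) 2106, 5354 and 1124, and without a filter 1120, 3407 and 373. Leaving out a library gave 0 to 397, 2 to 264 and 18 to 141. For actuated against static (0; edgeR, 56 genes with an unadjusted p under 0.05) there were 40 with no filter, 2 with DESeq2 and 6 on unfiltered TPM. For high against low (0; edgeR, 1131 unadjusted) there were 126, 49 and 8, with 1 on log2(TPM + 0.1) and 0 to 3 with a library left out. The log2 ratio of Isl2 to Isl1 moved from -2.04 to -0.86 (high minus control) and from -0.30 to 0.74 (low minus control) with CPM in place of TPM. The causes were not tested.

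With the replicate number as a block, 2, 8 and 36 genes were called in high, low and static against control, and 0 members. Correlations of same-numbered deviations were not all above 0.1 (for actuated and static 0.144, -0.116 and 0.182), and the main fit did not pair samples by number. With so few libraries per group, such values cannot tell whether same-numbered samples shared a culture or batch. With the block, Slit2 in static against control had an edgeR adjusted p of 0.108. Isl2 (61 counts in 21 libraries) and Lhx3 (18 in the deeper controls) rest on few counts, and only 3 deeper static libraries enter comparisons with that group.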
